A study of Mus musculus with 8 samples.

Results

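The regions described here are p300 peaks called at promoters of C2C12 cells treated with bexarotene that overlapped no p300 peak of untreated cells. C2C12 is a mouse myoblast line that exits the cell cycle and fuses into myotubes when serum is withdrawn. The cells were kept for 24 h in differentiation medium without the drug (Ctl) or with 50 nM bexarotene (Bex), an agonist selective for the retinoid X receptor (RXR), and both conditions share the low-serum medium. p300 and myogenin were each profiled by ChIP-seq with 1 library per condition, and 4 of the 8 samples have a peak list. A peak was selected on its position alone: it came from the p300 Bex list, shared no base with any interval of the p300 Ctl list, and had its centre within 1 kb of the transcription start site (TSS) of a protein-coding transcript in the mm9 annotation. This rule found 553 Bex-only promoter peaks among 9154 p300 Bex intervals, and 599 protein-coding genes had such a peak within 1 kb of a TSS.

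p300 is a histone acetyltransferase that binds no DNA sequence of its own and reaches promoters and enhancers through transcription factors, among them Creb and its relatives, which bind the cyclic AMP response element. It acetylates nearby histones and bridges factors to the polymerase machinery. In muscle it acts with myogenic factors such as MyoD and myogenin, which recognise E-boxes. RXR pairs with retinoic acid receptors and other nuclear receptors, and these pairs bind repeats of an AGGTCA-like half-site.

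The sequences of 4 promoters with many copies of TGACG, the core recognised by Atf and Creb factors, are shown because the share of peaks with this core differed from that of Ctl-only promoter peaks, also among CpG-rich windows. The stretches run 5′ to 3′ on the strand of the gene in mm9, were taken from 200 bases around the peak centre and were trimmed to leave no more than 20 bases of an annotated exon at either end. Capitals mark TGACG on either strand, so that a full TGACGTCA counts as 2 sites. Of the 4 cores within 100 bp of the Isca1 peak centre, 3 lie in the stretch shown. The stretch at Eef2, the elongation factor that moves the ribosome along the mRNA, is chr10:80639244-80639395 (+ strand). Isca1, a mitochondrial factor for iron-sulfur cluster assembly, is at chr13:59871152-59871338 (- strand). Atad2b, a bromodomain ATPase, is at chr12:4924004-4924203 (+ strand), and Arl5b, a small GTPase of the Arf family whose internal start here lies opposite the start of Nsun6, is at chr2:14976756-14976928 (+ strand).
Eef2: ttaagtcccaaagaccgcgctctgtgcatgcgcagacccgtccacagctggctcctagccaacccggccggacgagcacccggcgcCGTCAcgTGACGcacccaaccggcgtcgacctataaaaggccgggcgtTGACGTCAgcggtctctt
Isca1: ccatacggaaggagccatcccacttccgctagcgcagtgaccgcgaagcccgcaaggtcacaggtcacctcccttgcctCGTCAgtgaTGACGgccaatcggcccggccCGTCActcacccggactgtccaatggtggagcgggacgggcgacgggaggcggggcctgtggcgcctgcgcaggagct
Atad2b: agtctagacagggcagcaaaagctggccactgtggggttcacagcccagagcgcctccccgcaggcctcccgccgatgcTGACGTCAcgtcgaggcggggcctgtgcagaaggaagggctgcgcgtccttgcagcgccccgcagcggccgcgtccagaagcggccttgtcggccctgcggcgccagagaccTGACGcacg
Arl5b: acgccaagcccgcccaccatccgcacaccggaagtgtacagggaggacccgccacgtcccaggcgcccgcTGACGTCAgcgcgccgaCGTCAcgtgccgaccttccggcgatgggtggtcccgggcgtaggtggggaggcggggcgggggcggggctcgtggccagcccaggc

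A promoter with several GC boxes (GGGCGG, the Sp1 site, capitals on either strand) is shown for Pabpc4, a cytoplasmic poly(A)-binding protein, at chr4:122959907-122960087 (+ strand). It belongs to an internal start of Pabpc4, 20474 bp from the 5′ end of the gene. The peaks at Rdh5, a retinol dehydrogenase, at chr10:128359443-128359642 (- strand), and at Gm11147, a predicted gene, at chr9:53683940-53684107 (- strand), also overlapped a myogenin peak, and their capitals mark the E-box CACCTG or CAGCTG on either strand. Of the 2 E-boxes within 100 bp of the Gm11147 peak centre, 1 is whole in the stretch shown.
Pabpc4: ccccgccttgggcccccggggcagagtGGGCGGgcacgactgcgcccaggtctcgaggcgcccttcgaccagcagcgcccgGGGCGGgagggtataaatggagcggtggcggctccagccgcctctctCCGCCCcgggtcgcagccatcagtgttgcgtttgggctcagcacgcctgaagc
Rdh5: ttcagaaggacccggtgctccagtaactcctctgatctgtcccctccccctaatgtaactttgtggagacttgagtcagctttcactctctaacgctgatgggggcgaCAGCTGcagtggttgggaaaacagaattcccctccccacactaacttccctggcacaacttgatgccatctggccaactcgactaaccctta
Gm11147: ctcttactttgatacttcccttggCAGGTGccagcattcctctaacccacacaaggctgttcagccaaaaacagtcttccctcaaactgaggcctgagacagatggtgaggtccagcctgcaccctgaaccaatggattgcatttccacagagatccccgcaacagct

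Bex-only promoter peaks were short. Their length ranged from 158 to 388 bp with a median of 158 bp, and 429 of them (77.6%) had exactly the smallest length in the Bex list, against 54.6% of the 579 promoter peaks of the same list that overlapped a Ctl interval (shared). The 1844 Ctl-only promoter peaks, defined the same way from the p300 Ctl list, had the smallest length of their own list, 159 bp, in 62.6%. The lists hold no peak height, so a length is the only measure of size, and only 27 Bex-only promoter peaks were longer than 250 bp. The longest lay over the 5′ UTR of Leprotl1 (388 bp, chr8:35209671-35210058), followed by the peak 21 bp upstream of Mob1b (373 bp, chr5:89149673-89150045), an activator of Hippo pathway kinases. Peaks of 334 and 300 bp lay upstream of internal starts of the histone reader genes Phf21a (chr2:92023401-92023734) and Ing2 (chr8:48759033-48759332), 90989 and 1867 bp from the 5′ end of each gene. The ubiquitin ligase genes Siah2 and Mycbp2 had peaks of 332 and 328 bp, the first over a coding exon and the other 147 bp upstream of the TSS. The remaining peaks among the 12 longest were at Pabpc4 (323 bp), the zinc finger gene Zfp217 (321 bp), the ribosomal protein gene Rps20 (319 bp), the mitochondrial protein gene Gbas (312 bp), the flavin monooxygenase gene Fmo1 (309 bp) and the Cdc42 effector gene Cdc42ep1 (303 bp). Those at Pabpc4, Zfp217 and Fmo1 were also at internal starts, 20474, 16883 and 6834 bp from the 5′ end of each gene.

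Peaks that overlapped no Ctl interval made up 20.3% of the whole p300 Bex list, 1856 of 9154. They were 48.9% of the 1132 Bex peaks at promoters and 16.2% of the 8022 farther from a TSS, where these shares describe the contrast that chose the peaks and are not a separate result. Among the autosomes, the share of Bex promoter peaks that were Bex-only ran from 26.9% on chromosome 18 (7 of 26) to 63.6% on chromosome 19 (21 of 33). The Ctl list is longer, with 22051 intervals, and its library and the Bex library cannot be compared in depth from positions. With 1 library per condition, a difference between libraries cannot be told apart from an effect of the drug. At the limit of the distance rule, the peaks at Mynn and 4930442H23Rik had their centres 977 and 987 bp from the TSS and were kept, while those at Ddx6, Rbpj and Mical1, at 1012, 1012 and 1013 bp, were not. At the limit of the overlap rule, the peak at Snrnp35 touched a Ctl interval with a gap of 0 bp, and those at Polr3e and Fam102b lay 2 and 4 bp from one. Shared peaks at Acadsb, Cyp51 and Atg12 overlapped a Ctl interval by 6, 9 and 10 bp.

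The distance to p300 peaks of untreated cells is given as a description, since the rule removed every peak that overlapped one. The median distance to the nearest Ctl interval was 22047 bp, and it was 6739 bp for the 1303 Bex-only peaks farther from a TSS. Ctl-only promoter peaks had a median distance of 51983 bp to the nearest interval of the shorter Bex list. A Ctl interval was found within 100 bp of 29 of the 553 peaks, within 1 kb of 99 (17.9%) and within 10 kb of 198 (35.8%). At the level of genes, 10.6% of 22378 protein-coding genes had any p300 Ctl peak within 1 kb of a TSS, and this held for 106 of the 599 genes with a Bex-only peak (17.7%). The other 493 genes (82.3%) had a p300 promoter peak in the Bex list alone. Among the 12 longest peaks, the one at Cdc42ep1 lay 221 bp from a Ctl interval, the one at Gbas 5533 bp, and the other 10 between 10363 bp (Zfp217) and 166153 bp (Mob1b).

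**Figure D1:**
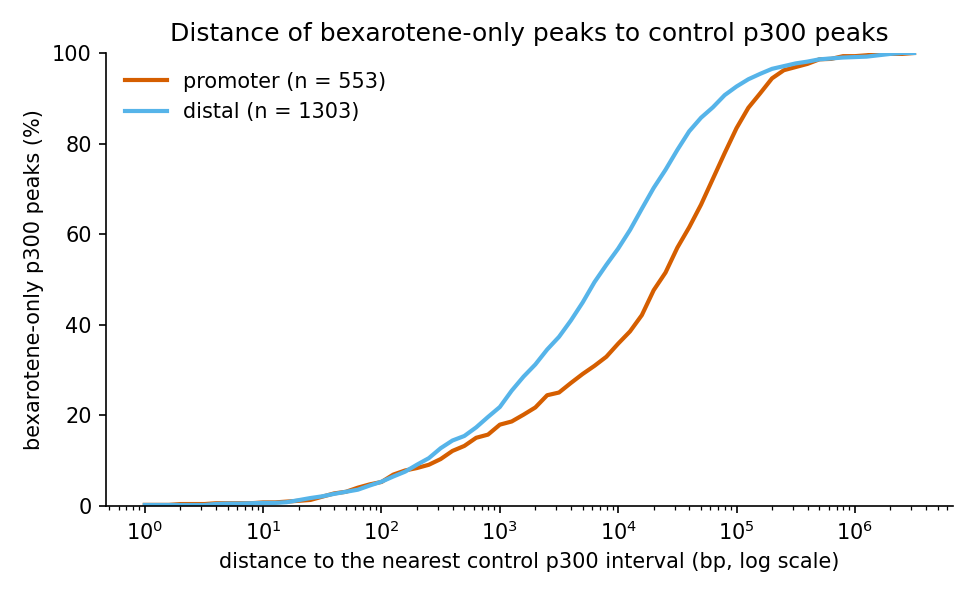
Share of Bex-only p300 peaks (y axis, percent) with a p300 Ctl interval at or within a given distance (x axis, bp, log scale), for the 553 promoter peaks and the 1303 distal peaks. The curves run together up to about 100 bp and then separate, with 35.8% of the promoter peaks and 56.8% of the distal peaks reaching a Ctl interval within 10 kb.

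The rule kept only centres within 1 kb of a TSS in each class, so closeness to the TSS is partly fixed and is given as a description. Within that window, Bex-only promoter peaks lay more often upstream of the TSS than downstream. The median centre was 34 bp upstream, and 404 of 553 peaks (73.1%, 95% Wilson interval 69.2 to 76.6) were within 200 bp of a TSS, against 60.6% of Ctl-only and 64.8% of shared promoter peaks. The difference was 12.5 percentage points from Ctl-only peaks (95% Newcombe interval 8.05 to 16.7) and 8.29 points from shared peaks (2.89 to 13.6). All such intervals cover counting error over peaks, which are not replicates of a condition, and not the variation between cultures. The centre was upstream of the nearest TSS for 62.7% of Bex-only, 54.1% of Ctl-only and 68.4% of shared peaks. The nearest TSS was an internal start, not the 5′ end of the annotated gene, for 181 of the 553 Bex-only peaks, and 74 lay upstream of such a start but inside the gene. Of the Bex-only peaks that were not upstream, 133 lay in a 5′ UTR or other noncoding part of an exon, 52 in an intron and 21 in a coding exon of the nearest transcript. Bidirectional promoters were those where divergent genes had starts at most 1 kb apart, both within 1 kb of the peak centre. They held 42 of the peaks (7.59%), against 7.21% of Ctl-only peaks (difference 0.382 points, -1.93 to 3.12) and 4.15% of shared peaks (difference 3.45 points, 0.709 to 6.30). An example is the 158 bp peak at chr1:63223274-63223431, 43 bp inside Ndufs1, a subunit of respiratory complex I, and 46 bp upstream of Eef1b2, a translation elongation factor.

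**Figure D2:**
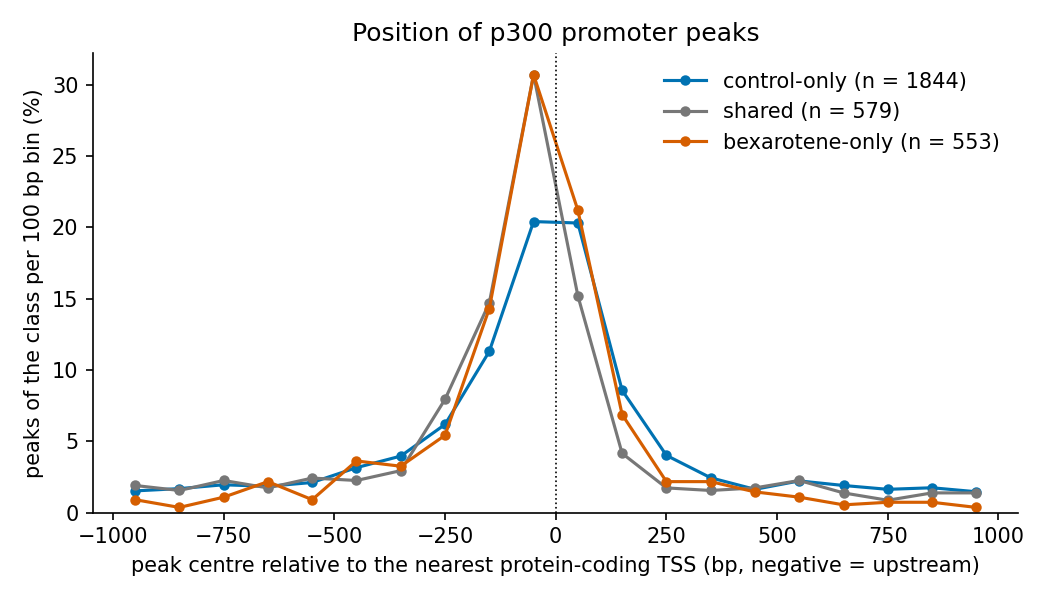
Position of the centre of p300 promoter peaks relative to the nearest protein-coding TSS (x axis, bp, negative values upstream) as the percent of each class in 100 bp bins (y axis). The bin just upstream of the TSS held 30.7% of Bex-only, 30.7% of shared and 20.4% of Ctl-only peaks, and the bin just downstream held 21.2%, 15.2% and 20.3%.

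The DNA under Bex-only promoter peaks was rich in GC and CpG. The median GC content of the central 200 bp was 66.5% (quartiles 59.0 and 72.5), compared with 64.0% at Ctl-only peaks, 64.5% at shared peaks and 59.0% at windows around all 45981 protein-coding TSS positions. The median ratio of observed to expected CpG was 0.863, against 0.778, 0.782 and 0.607. A window with a ratio of at least 0.6 and a GC content of at least 55%, called CpG-rich here, was found at 75.4% of Bex-only, 59.8% of Ctl-only and 61.3% of shared promoter peaks. The difference from Ctl-only peaks was 15.6 points (11.2 to 19.7). Windows of low CpG content were also present, such as Gm11147 with a ratio of 0.0863 and Cryab with 0.119.

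The Atf/Creb core TGACG was more frequent at Bex-only than at Ctl-only or shared promoter peaks. It occurred within 100 bp of the centre in 27.7% of Bex-only, 18.8% of Ctl-only and 21.2% of shared promoter peaks, and in 18.4% of windows at all TSS. The difference was 8.90 points from Ctl-only peaks (4.89 to 13.1) and 6.42 points from shared peaks (1.42 to 11.4). Within CpG-rich windows alone the difference from Ctl-only peaks was 9.83 points (4.78 to 15.1), and among peaks centred within 200 bp of the TSS it was 7.91 points (2.94 to 13.1). It was smaller among peaks longer than the smallest interval, at 2.41 points with an interval from -4.79 to 11.0, where 22.6% of 124 Bex-only peaks held the core. There were 44 Bex-only peaks with 2 or more cores (7.96%, against 4.50% and 3.80%). A full TGACGTCA counts as 2 cores, so these shares include every peak with the palindrome. The full palindrome TGACGTCA was found in 3.07%, 1.57% and 2.07% of the classes and in 1.64% of all TSS windows. Along the window, TGACG was 2.34 times as dense in the central 200 bp of Bex-only peaks as 300 to 500 bp away, 1.65 times as dense for Ctl-only peaks and 1.99 times for shared peaks. The Atf and Sp1 sites were taken up because the study's own motif search at p300 promoter loci of the same libraries had named both factors, so their shares are not independent evidence of that choice.

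Eef2, Isca1, Rbm18 and Slc25a3 had 4 TGACG cores each within 100 bp of the centre, the highest number at any Bex-only promoter peak. Atad2b and Arl5b had the longest peaks among those with 3 cores. Slc25a3 encodes the phosphate carrier of the inner mitochondrial membrane, and its peak (chr10:90586755-90586912) was centred 30 bp upstream of the TSS. The peak at Rbm18, a gene for an RNA-binding protein, lay at chr2:35991996-35992153, also within 1 kb of Mrrf, the mitochondrial ribosome recycling factor. None of these 6 genes had a p300 Ctl peak within 1 kb of a TSS, and the distance to the nearest Ctl interval ranged from 15828 bp (Eef2) to 166127 bp (Arl5b). The printed stretch at Eef2 holds TGACGTCA near the annotated start and 2 further cores upstream of a TATAAA box. These 2 cores both overlap a CACGTG, the E-box of USF factors, and the last core shown at Arl5b also overlaps a CACGTG.

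GC boxes, bound by Sp1, were the most frequent site. GGGCGG occurred in 56.1% of Bex-only, 46.7% of Ctl-only and 51.1% of shared promoter peaks, and in 38.5% of all TSS windows. The difference from Ctl-only peaks was 9.31 points (4.56 to 14.0), but within CpG-rich windows it was -0.242 points (-5.63 to 4.95). Both a GC box and a TGACG core were present in 17.5% of Bex-only, 10.7% of Ctl-only and 12.4% of shared peaks, and in 9.27% of all TSS windows. The Ets site CCGGAAG was found in 14.3%, 10.9% and 10.9% (8.59% of all TSS windows), and the USF E-box CACGTG in 7.96%, 5.21% and 5.70% (5.19%). For both sites the interval of the difference from Ctl-only peaks left out 0 over all peaks (Ets 0.320 to 6.82, USF 0.484 to 5.47) but not within CpG-rich windows (-1.06 to 7.39 and -0.998 to 5.29). The Nrf1 site GCGCATGC was found in 2.89% and 1.41% of Bex-only and Ctl-only peaks in 2.94% of shared peaks and in 2.29% of all TSS windows.

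Sites of AP-1, Runx and Tead factors, which are known from enhancers of many tissues, were less frequent at Bex-only than at Ctl-only promoter peaks over all peaks, with intervals that took in 0 within CpG-rich windows. The AP-1 site TGACTCA was found in 4.70%, against 7.59% of Ctl-only peaks (difference -2.89 points, -4.85 to -0.511), 12.3% of shared peaks and 2.61% of all TSS windows. The Runx site TGTGGT occurred in 5.79%, 11.8% and 13.8%, and 9.87% of all TSS windows. The Tead site GGAATG occurred in 7.05%, 10.6% and 12.6%, and 7.85% of all TSS windows. Within CpG-rich windows the differences from Ctl-only peaks were 1.16 points for AP-1 (-0.396 to 3.33), -1.36 points for Runx (-3.50 to 1.28) and -1.28 points for Tead (-3.73 to 1.66). Among peaks centred within 200 bp of the TSS they were -0.674 points for AP-1 (-2.67 to 1.88), -3.55 points for Runx (-6.03 to -0.579) and -2.47 points for Tead (-5.09 to 0.649). Among peaks longer than the smallest interval they were -7.39 points for AP-1 (-10.0 to -2.88) and -10.5 points for Runx (-14.1 to -4.87). For Tead the difference among longer peaks was -3.24 points (-8.12 to 3.63). The E-box CACCTG or CAGCTG was found in 20.8% of Bex-only, 23.5% of Ctl-only and 26.9% of shared peaks, and in 25.4% of all TSS windows.

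For nuclear receptors, the half-site AGGTCA or GGGTCA was found in 14.8% of Bex-only and 14.8% of Ctl-only promoter peaks, with a difference of 0.0777 points (-3.12 to 3.64), in 15.9% of shared peaks and in 17.4% of all TSS windows. The CCAAT box occurred in 18.3%, 15.3% and 14.5% of the classes and in 24.5% of all TSS windows. Its difference from Ctl-only peaks was 2.92 points over all peaks (-0.538 to 6.70) and 4.64 points within CpG-rich windows (0.853 to 8.85). The TATA box TATAAA occurred in 5.06%, 5.37% and 5.18% of the classes and in 6.66% of all TSS windows. In all, the interval of the difference left out 0 for 9 of 16 sites against Ctl-only peaks and for 5 of 16 against shared peaks. These intervals were not adjusted for the number of sites. The remaining sites were rare or absent: AAGATGGCG of YY1 in 1.81% of Bex-only peaks (1.84% of all TSS windows), TTTCGCGC or TTTGGCGC of E2F in 0.542% (0.620%), and CTACAATTC of ZNF143 in 0 of 553 (0.231%). A count of 0 in 553 peaks allows a share of up to 0.542%, taken as 3 counts, and the upper limit of the Wilson interval is 0.690%.

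**Figure D3:**
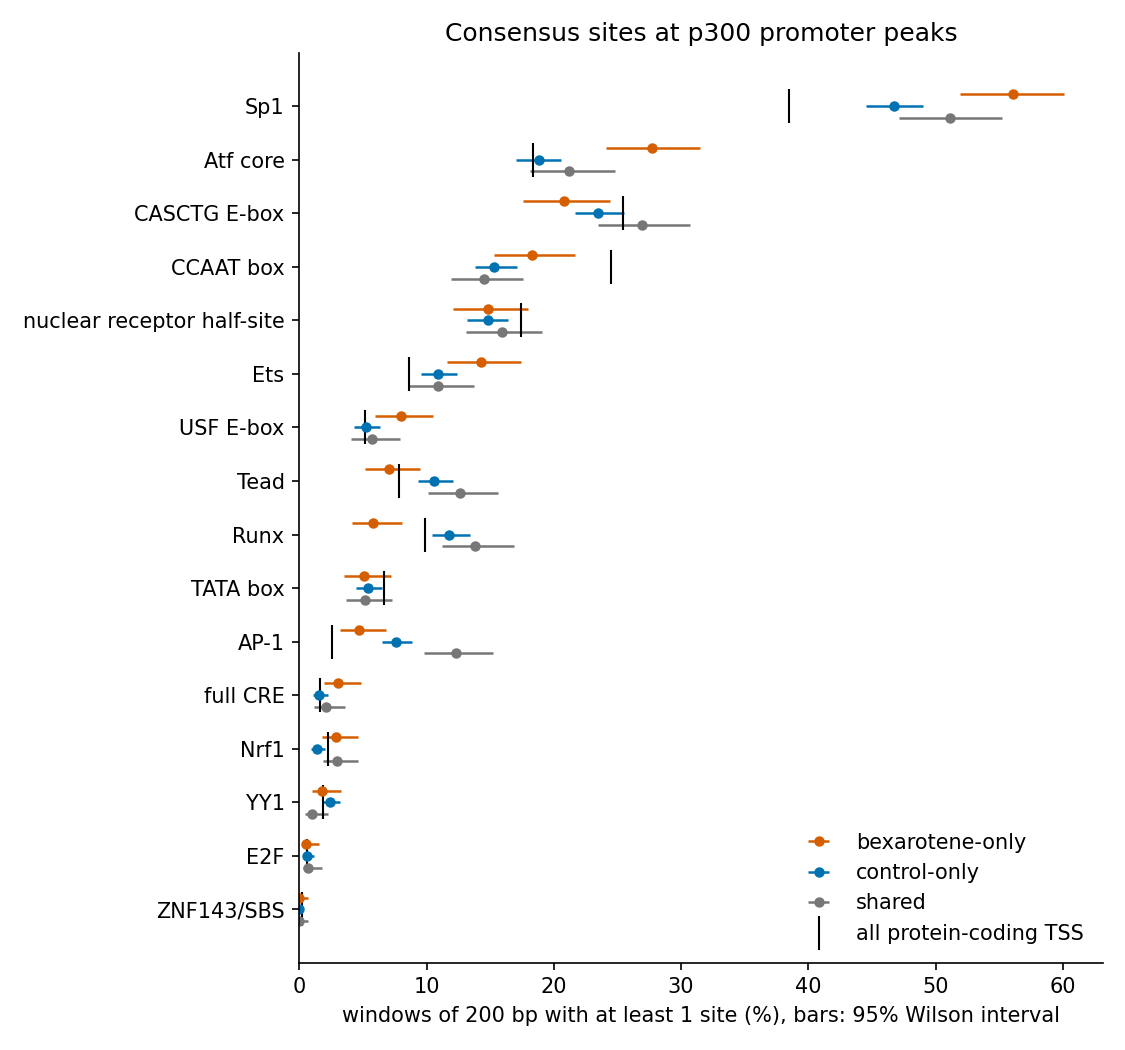
Percent of promoter peaks with at least 1 site within 100 bp of the centre (x axis) for 16 consensus sequences (y axis), by class of p300 peak, with 95% Wilson intervals as bars and the share at all protein-coding TSS as a black tick. The Atf core (27.7%) and Sp1 (56.1%) of Bex-only peaks lie above the other classes, and AP-1, Runx and Tead lie below them.

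**Figure D4:**
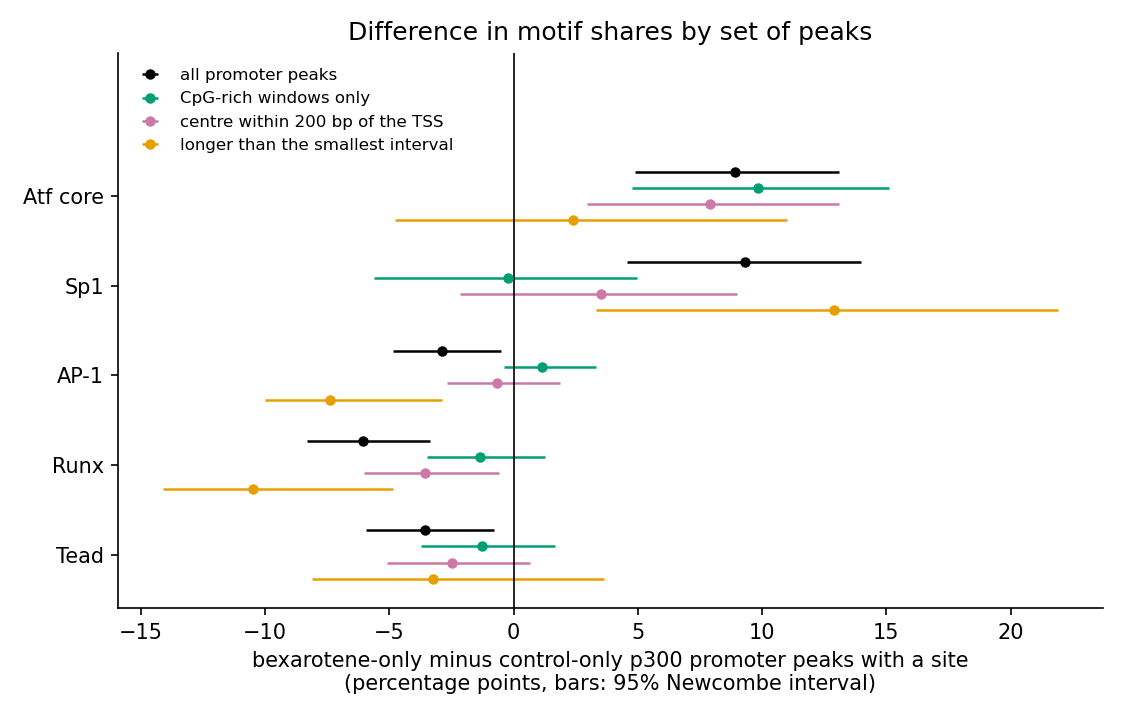
Difference in the share of Bex-only and Ctl-only promoter peaks with a site (x axis, percentage points, bars are 95% Newcombe intervals) for 5 sites, over all peaks and over subsets. The Atf core stays near 8 to 10 points in CpG-rich windows and near the TSS and is 2.41 points among longer peaks, while the Sp1 difference is -0.242 points in CpG-rich windows.

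Myogenin, the muscle-specific E-box binding factor that was profiled under the same conditions, seldom had an interval that overlapped these p300 peaks. A myogenin Bex interval overlapped 22 of 553 Bex-only peaks (3.98%, 2.64 to 5.95), and a myogenin Ctl interval overlapped 32 (5.79%, 4.13 to 8.05). Among Ctl-only p300 promoter peaks the shares were 4.07% and 5.04%, with differences of -0.0889 points (-1.76 to 2.04) and 0.743 points (-1.24 to 3.19). With centres within 500 bp counted in place of overlap, the Bex-only shares were 7.96% (Bex) and 14.1% (Ctl). Their differences from Ctl-only peaks were then 1.12 points (-1.21 to 3.89) and 4.56 points (1.55 to 7.95). Shared promoter peaks overlapped a myogenin Bex interval in 8.98%, and the difference of -5.00 points had an interval of -7.93 to -2.15. They overlapped a myogenin Ctl interval in 8.64%, with a difference of -2.85 points (-5.91 to 0.191). Windows at all TSS overlapped a myogenin interval in 0.702% (Bex) and 1.27% (Ctl). Of the 553 peaks, 13 overlapped myogenin in the Bex list and not in the Ctl list, 23 in the Ctl list and not in the Bex list, 9 in both and 508 in neither. An E-box lay within 100 bp of the centre in 11 of the 22 peaks with a myogenin Bex overlap, in 12 of the 23 with a Ctl overlap alone and in 92 of the 508 without (18.1%).

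The 10 longest peaks with a myogenin Bex overlap included Tpm2 and Cryab, the members of the list of muscle structure and function genes. At Tpm2, the gene for beta-tropomyosin, the p300 peak (chr4:43536585-43536781) was centred 46 bp upstream of the TSS, held 2 E-boxes, lay 40 bp from a p300 Ctl interval (chr4:43536386-43536544) and was covered by a myogenin interval (chr4:43536561-43536789) in the Bex list only. At Cryab, the small heat shock protein that protects desmin filaments, the peak (chr9:50560860-50561089) lay 112 bp inside the gene, held 1 E-box and overlapped a myogenin Bex interval (chr9:50561005-50561172), and the nearest p300 Ctl interval was 15242 bp away. Cryab shares this promoter with the small heat shock gene Hspb2. Mdm2, the ubiquitin ligase for p53, the matrix metalloproteinase Mmp14 and the bZIP repressor Nfil3 likewise overlapped myogenin in the Bex list only. Rdh5, Taf4a, Gm11147, Klf10 and Gcom1 overlapped myogenin in both lists. The Rdh5 peak lay within long myogenin intervals of 1292 bp in Ctl and 951 bp in Bex.

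Among all 22378 protein-coding genes, 2.68% had a Bex-only p300 promoter peak, and the 21 gene lists are described beside this share by counts alone. Of 76 muscle genes for structural and contractile proteins 2 had such a peak (2.63%), namely Cryab and Tpm2, while 9 (11.8%) had a Ctl-only and 8 (10.5%) a shared p300 promoter peak. Among all protein-coding genes these shares were 8.26% and 2.65%. Of 41 myogenic regulators 2 had a Bex-only peak: Pax7, the satellite cell factor (chr4:139388942-139389099, centred 99 bp upstream of an internal start that lies 523 bp inside the gene), and Eya4, a transcriptional coactivator (chr10:23070077-23070234, 455 bp upstream). Both peaks were 158 bp long, overlapped no myogenin interval and had no p300 Ctl peak at their promoters. A Ctl-only peak was found at 8 of the 41 regulators (19.5%, against 8.26% of all genes).

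Known targets of RXR and its partners had 1 of 38 genes (2.63%), the fatty acid desaturase gene Scd2 (chr19:44368291-44368448, 204 bp inside the gene and 813 bp from a p300 Ctl interval). Among 43 nuclear receptor genes the peak was at Rara (2.33%), the retinoic acid receptor alpha that pairs with RXR. It measured 197 bp (chr11:98798965-98799161), lay 31 bp downstream of an internal start, 9900 bp from the 5′ end of the gene, and was 359 bp from a p300 Ctl interval (chr11:98799521-98799679), so that p300 was called at this promoter in both libraries. With a TSS window of 2 kb each of these lists had 2 genes.

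Genes for AP-1, Atf and Creb factors had 6 of 45 members with a Bex-only peak (13.3%, against 2.68% of all genes). In this list 11 had a Ctl-only peak (24.4%, against 8.26% of all genes). Jun and Jund, subunits of AP-1, had peaks of 216 bp (chr4:94718707-94718922) and 220 bp (chr8:73222818-73223037) just downstream of a TSS, which for Jund is an internal start 1219 bp from the 5′ end of the annotated gene. The peaks at Ddit3, the stress-induced factor Chop (chr10:126727496-126727653), Creb5 (chr6:53523081-53523238), Crebzf (chr7:97591286-97591443) and the bZIP repressor Bach2 (chr4:32325567-32325724) were each 158 bp long. Creb5, Ddit3 and Jund also had a p300 Ctl peak at the promoter, 39, 116 and 252 bp away, and the Jun peak lay 996 bp from a Ctl interval. Bach2 and Crebzf were 11588 and 55477 bp from the nearest one. TGACG was found within 100 bp of the centre of the Bach2 peak, as 1 full TGACGTCA that counts as 2 sites, and at none of the other 5.

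Of 21 acetyltransferase genes 3 had a Bex-only peak (14.3%, against 2.68% of all genes), and 2 with a TSS window of 500 bp. A Ctl-only peak was found at 4 (19.0%, against 8.26% of all genes). None of the 3 genes with a Bex-only peak had a p300 Ctl peak within 1 kb of a TSS. They were Ncoa2, the nuclear receptor coactivator that joins p300 at liganded receptors (199 bp, chr1:13363122-13363320, 701 bp upstream of an internal start that lies 1644 bp inside the gene), and Naa15 and Naa50, subunits of the N-terminal acetyltransferase that modifies nascent proteins (both 158 bp). The peak counted for Naa50 was centred on the TSS of the divergent gene Atp6v1a, 200 bp upstream of Naa50. Of 19 deacetylase gene records the peak was at Sirt4, and of 17 Sp and Klf genes it was at Klf10. Sirt4, and among the lists below the genes beyond the 3 longest peaks of a list, were named after their values were seen.

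Cytosolic ribosomal protein genes had 10 of 83 with a Bex-only peak, beside 11 (13.3%) with a Ctl-only and 8 (9.64%) with a shared peak, against 8.26% and 2.65% of all genes. The peaks at Rps20 (319 bp, chr4:3762786-3763104) and Rpl11 (204 bp, chr4:135609107-135609310) were longer than the smallest interval. Those at Rpl10, Rpl36, Rpl38, Rpl5, Rpl6, Rps15a, Rps27l and Rps3 were 158 bp, and all 10 centres lay within 159 bp of the TSS. Rps27l alone had a p300 Ctl peak at its promoter, 67 bp away. Translation factors had 6 of 67 (8.96%), with Eef2 (199 bp) the longest, then Eef1b2 and Eif2a among peaks of 158 bp, and none had a p300 Ctl promoter peak. General transcription factors and polymerase subunits had 9 of 104 (8.65%), including Polr3e (213 bp), Taf4a (213 bp) and Gtf3c3 (203 bp), a subunit of the polymerase III factor TFIIIC. Splicing factors had 6 of 77 (7.79%), among them Hnrnpu (200 bp), Hnrnph3 and Prpf40b. Mitochondrial respiratory chain genes had 6 of 92 (6.52%), with the ATP synthase subunit gene Atp5g3 (200 bp) the longest. The share over all genes beside each of these lists is again 2.68%. Ctl-only shares were 14.9% for translation factors, 12.5% for general transcription, 13.0% for splicing and 8.70% for the respiratory chain, against 8.26% of all genes.

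Other lists were nearer to the share of all genes. Proteasome genes had 2 of 52 (Psmb6 and Psme4), mitochondrial ribosomal protein genes 1 of 77 (Mrpl24) and aminoacyl-tRNA synthetases 0 of 34. Zinc finger genes had 12 of 425 (2.82%), histones 3 of 79, chaperones 3 of 86 (Hspb2, Dnaja1 and Dnajb4), which were 1 each with a TSS window of 500 bp, and ubiquitin conjugation genes 9 of 174 (5.17%). Of the 3 histone genes, Hist1h1e and Hist1h2be had the same peak (chr13:23713535-23713692). The list of cell cycle and replication genes was matched by symbol and had 7 of 128 (5.47%), but Cdc42ep1, Cdc42bpb and Cdk5r1 are not cell cycle genes despite their symbols. The others were Cdk4 (236 bp, chr10:126500507-126500742), the kinase of the G1 transition, Cdk5rap3, Cdk10 and Pole4. In each of the 21 lists more genes had a Ctl-only peak than a Bex-only one, and among all genes 8.26% had a Ctl-only peak.

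**Figure D5:**
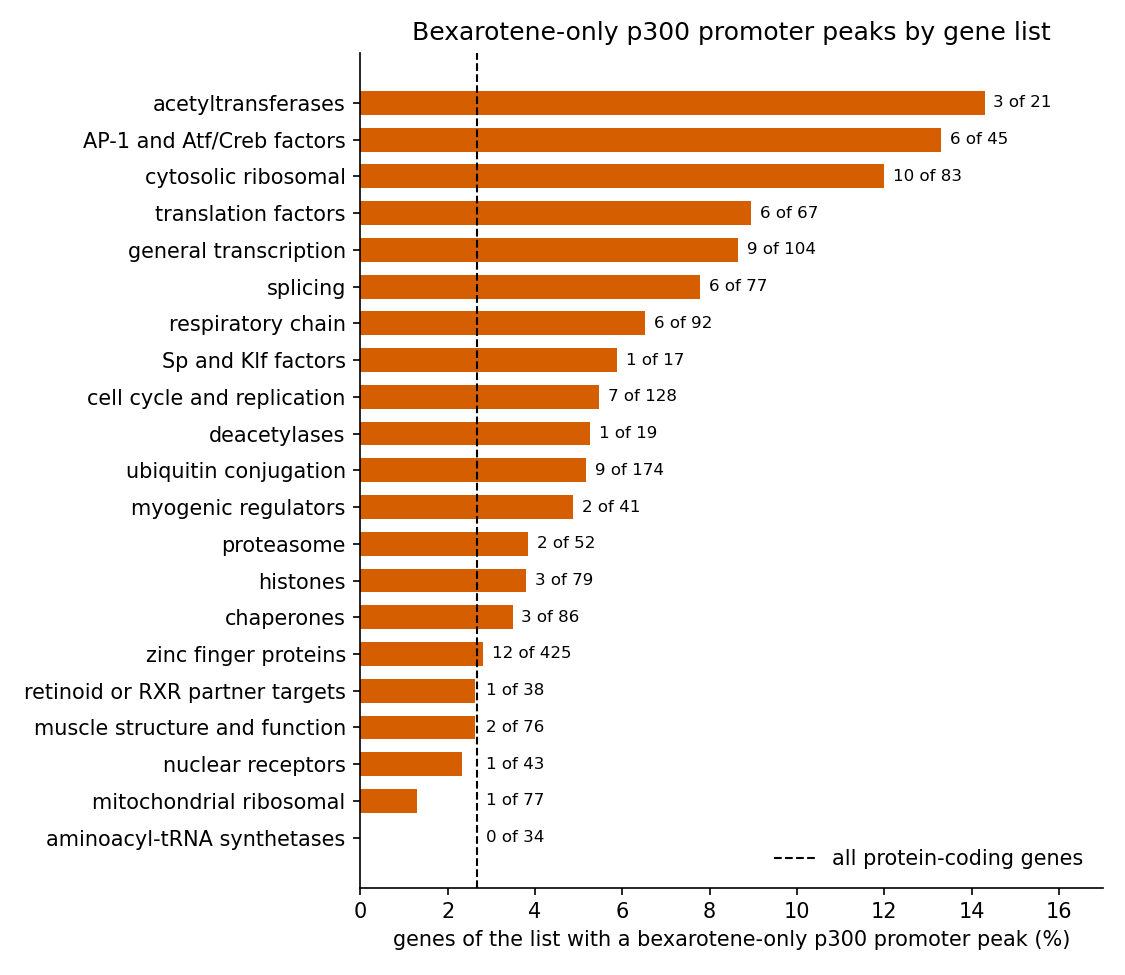
Percent of the genes of 21 lists with a Bex-only p300 promoter peak (bars, x axis), with the number of genes beside each bar and the share of all protein-coding genes, 2.68%, as a dashed line. Acetyltransferases (3 of 21), AP-1 and Atf/Creb factors (6 of 45) and cytosolic ribosomal proteins (10 of 83) have the longest bars, and muscle and retinoid genes lie at the line.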

How the data were processed

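The authors mapped single-end reads to mm9, with Bowtie for p300 and BWA-MEM for myogenin, discarded duplicates using Picard and ran the factor style of HOMER findPeaks library by library. The deposited lists hold interval positions only, with no tag counts, scores or input values, and the depth of the libraries is not known from them. The authors' threshold therefore could not be varied, and heights could not be compared.

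Intervals were counted from a start of 0 in the lists and are printed from 1. TSS positions came from the GENCODE annotation of the same build (51733 protein-coding transcripts, 45981 distinct starts) and sequences from its genome. Consensus sites were counted on both strands, overlapping copies included. With 1 library per condition no test was run. Wilson intervals (95%) stand beside shares, and Newcombe intervals (95%) beside differences.

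The members and lists were chosen with earlier results of these data known. Named genes were the 12 longest members, the 10 longest overlapping a myogenin Bex peak, the 6 with most TGACG (ties broken by peak length), every member of the muscle, myogenic, retinoid, nuclear receptor, AP-1/Atf and acetyltransferase lists and the 3 longest of longer lists. Computations used Python 3.11.15 with numpy 2.4.6, pysam 0.24.0 and statsmodels 0.14.6, and figures used matplotlib 3.10.9. Functions were tested on simulated data.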

Additional observations from a re-analysis of the deposited data

How the results depend on the processing

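No paired analysis was possible because each condition has 1 library; leaving a library out removes its condition. The alternatives changed the overlap rule, the TSS window and catalogue, the motif window and the set of peaks. Restriction to CpG-rich windows, to centres within 200 bp of the TSS and to peaks over 1 kb from a Ctl interval was added after seeing the data. Of 176 values recomputed, 117 moved by less than their counting interval (or, for counts of genes and peaks, by at most 1.5 times), 54 moved by more and 5 changed sign. A narrower or wider motif window holds fewer or more sites by construction; other causes were not tested.

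Over the minimum length there were 124 Bex-only promoter peaks, and 8.06% of them overlapped a myogenin Bex peak. Their differences from Ctl-only peaks were 2.41 points for the Atf core, -7.39 for AP-1 and -10.5 for Runx. For overlap with myogenin Bex the difference changed sign to 2.40 points (-1.73 to 8.73). With 1 start per gene the share upstream of the TSS was 57.4%. The share of peaks whose gene also had a p300 Ctl promoter peak was 19.5% (108 of 553). It was 13.3% with a TSS window of 500 bp and 28.1% with 2 kb. With centres within 500 bp counted in place of overlap, 7.96% of peaks were near a myogenin Bex peak and 14.1% near a myogenin Ctl peak. In CpG-rich windows the differences were 14.7 points for the upstream share and -1.36 for Runx, and the sign changed for Sp1 (-0.242) and AP-1 (1.16). Among peaks within 200 bp of the TSS the Sp1 difference was 3.50 points, and that of overlap with myogenin Ctl changed sign to -0.605 (-2.65 to 2.00). The latter was -0.198 (-2.16 to 2.35) for the 454 Bex-only peaks over 1 kb from a Ctl interval, set against all 1844 Ctl-only peaks. The Runx difference was -2.75 points with a motif window of 50 bp on either side and -9.14 with 250 bp.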

Other observations

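Genes with a Bex-only p300 promoter peak had a myogenin peak within 1 kb of a TSS more often than all protein-coding genes, although the p300 and myogenin intervals seldom overlapped. The share was 19.4% in the myogenin Ctl list (116 of 599 genes, 95% Wilson interval 16.4 to 22.7) and 12.4% in the Bex list (74 of 599, 9.96 to 15.2), against 6.05% and 3.72% of all genes. Genes with a Ctl-only p300 promoter peak had 17.3% and 10.5%. Myogenin Ctl centres lay within 500 bp of 14.1% of Bex-only and 9.54% of Ctl-only p300 promoter peaks, a difference of 4.56 points (95% Newcombe interval 1.55 to 7.95), and of 14.7% of shared peaks (difference -0.576 points, -4.67 to 3.54). For myogenin Bex centres the difference from Ctl-only peaks was 1.12 points (-1.21 to 3.89).

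Overlap with a myogenin Bex peak was 8.06% of 124 longer peaks (95% Wilson interval 4.44 to 14.2) and 2.80% of 429 at the smallest interval (1.61 to 4.83). A p300 Ctl interval lay within 1 kb of 24.2% (17.5 to 32.4) and 16.1% (12.9 to 19.9). Overlap and distance between intervals depend on interval length, on which the peaks were split here, and the part due to length was not tested. The Atf core was found in 22.6% (16.1 to 30.7) and 29.1% (25.0 to 33.6), and the share within 200 bp of the TSS was 74.2% and 72.7%.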
